A study of Homo sapiens with 28 samples.

Results

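The loci of the JUN family, JUN, JUNB and JUND, were described through the CUT&RUN peaks that fell in 3 windows of build hg19, chr1:59000000-59500000 for JUN, chr19:12850000-12950000 for JUNB and chr19:18340000-18440000 for JUND. CUT&RUN cuts and releases the DNA next to an antibody with a tethered nuclease. All peaks of the 28 peak lists that overlapped a window were taken, which gave 768 of 1123337 peaks (0.0684%), with 571 in the JUN window, 66 in the JUNB window and 131 in the JUND window. The windows were chosen by position, and the JUN window spans 500 kb against 100 kb for each of the others. No hg19 gene annotation was used here, so peaks were placed by coordinate and not assigned to gene starts, exons or introns, and whether each window holds its gene was not checked.

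The cells were IMR-90 ER:Ras, a human fetal lung fibroblast line carrying an oncogenic Ras that 4-hydroxytamoxifen (4-OHT) switches on. Senescent cells (Sen) received 100 nM 4-OHT for 6 days and a control siRNA. The other senescent groups received, with the same 4-OHT treatment, siRNAs against FOXF1 and FOXF2 (Sen-siFOXF1/2), against the acetyltransferases p300 and CBP (Sen-sip300/CBP), or against JUN family members (Sen-cJUN/JUND-KD, whose title names cJUN and JUND and whose treatment tag also names JUNB). Samples titled Pro, for proliferating, carried the same 4-OHT, control siRNA and senescent cell type tags as Sen, so their state rests on the title alone. Antibodies against FOXF1 (8 libraries), phosphorylated c-JUN (p-c-JUN, 6 libraries) and the histone mark H3K27ac (14 libraries) were used, with 2 libraries a group except 4 for H3K27ac in Sen. Of the H3K27ac Sen libraries, replicates 1 and 2 came with a first deposit of 22 libraries and replicates 3 and 4 with a second of 6, which also held the JUN knockdown libraries of both antibodies. The sip300/CBP libraries had Sen controls of their own. No source says whether the replicates are separate cultures. Each p-value below therefore treats libraries as the units, and differences between libraries could be technical.

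JUN, JUNB and JUND are basic leucine zipper proteins that pair with each other, with FOS proteins or with ATF proteins to form AP-1 transcription factors. AP-1 binds the AP-1 element TGANTCA or the CRE-type element TGACNTCA, where N is any base, and kinases of the JNK group phosphorylate c-JUN, the protein of the JUN gene, in its activation domain. JUN is known to be regulated by its own product at AP-1-like elements upstream of its start. JUNB is an immediate early gene that often opposes JUN in growth control, and JUND is broadly expressed. AP-1 is known to occupy enhancers in senescent fibroblasts, which H3K27ac marks when active, and FOXF1 is a forkhead factor of lung mesenchyme.

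The 250 bases upstream of each gene's start are shown with their matches to AP-1 and forkhead elements. A match in letters was not taken as binding. They are RefSeq sequences of build GRCh38.p14, read 5′ to 3′ on the gene's strand, and they were not placed against the hg19 peaks. Capitals mark matches to the AP-1 element TGANTCA, the CRE-type element TGACNTCA, the AP-1-like element TTACCTCA known from the JUN promoter, and the forkhead core TGTTTAC, searched on both strands; no matches overlapped.
JUN, chr1:58784048-58784297, minus strand: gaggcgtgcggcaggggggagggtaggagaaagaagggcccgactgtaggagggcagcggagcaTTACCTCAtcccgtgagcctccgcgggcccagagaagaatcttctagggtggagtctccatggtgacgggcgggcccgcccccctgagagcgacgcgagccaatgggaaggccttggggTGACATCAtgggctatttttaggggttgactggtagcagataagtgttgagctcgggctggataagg
JUNB, chr19:12791236-12791485, plus strand: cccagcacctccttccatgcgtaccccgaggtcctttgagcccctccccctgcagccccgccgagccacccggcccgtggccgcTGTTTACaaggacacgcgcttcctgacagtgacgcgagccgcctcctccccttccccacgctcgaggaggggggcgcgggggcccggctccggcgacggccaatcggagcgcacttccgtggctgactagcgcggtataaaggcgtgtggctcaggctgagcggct
JUND, chr19:18281623-18281872, minus strand: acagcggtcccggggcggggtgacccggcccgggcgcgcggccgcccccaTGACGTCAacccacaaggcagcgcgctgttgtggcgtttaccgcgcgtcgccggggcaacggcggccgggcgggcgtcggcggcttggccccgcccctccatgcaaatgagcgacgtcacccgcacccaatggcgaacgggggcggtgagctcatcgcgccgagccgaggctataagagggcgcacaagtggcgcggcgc
The JUN sequence held TTACCTCA at 186 to 179 bases and TGACATCA at 67 to 60 bases before the start. The JUND sequence held TGACGTCA at 200 to 193 bases before the start, and the JUNB sequence held the forkhead core at 166 to 160 bases before it. Over 35116 RefSeq promoters of that length, 6.57% held TGANTCA, 6.87% held TGACNTCA, 0.644% held TTACCTCA and 2.98% held TGTTTAC. GC content was 62.0% for JUN, 70.8% for JUNB and 74.8% for JUND. In RefSeq, the nearest protein-coding genes are MYSM1 and FGGY beside JUN, HOOK2 and PRDX2 beside JUNB, and IQCN and LSM4 beside JUND.

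The number of peaks in the windows broadly followed the length of the whole list, less closely for H3K27ac. For that mark, Sen replicate 3 had 47 window peaks of 48859, and Pro replicate 1 had 46 of 84304. Its share of a list in the windows ran from 0.0546% in Pro replicate 1 to 0.147% in replicate 2 of the Sen controls for sip300/CBP. Lists ran from 133 to 93443 peaks, the number of mapped reads behind them is unknown, and 5 libraries, all of FOXF1, had no peak in any window. The share of a list in the 3 windows was 0.0627% and 0.0631% for p-c-JUN in Sen cells, and 0.0726% and 0.0716% in Pro cells. The Sen lists, with 70177 and 93443 peaks against 24808 and 32136 in Pro cells, had more window peaks but a slightly lower share of their peaks there.

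**Figure D1:**
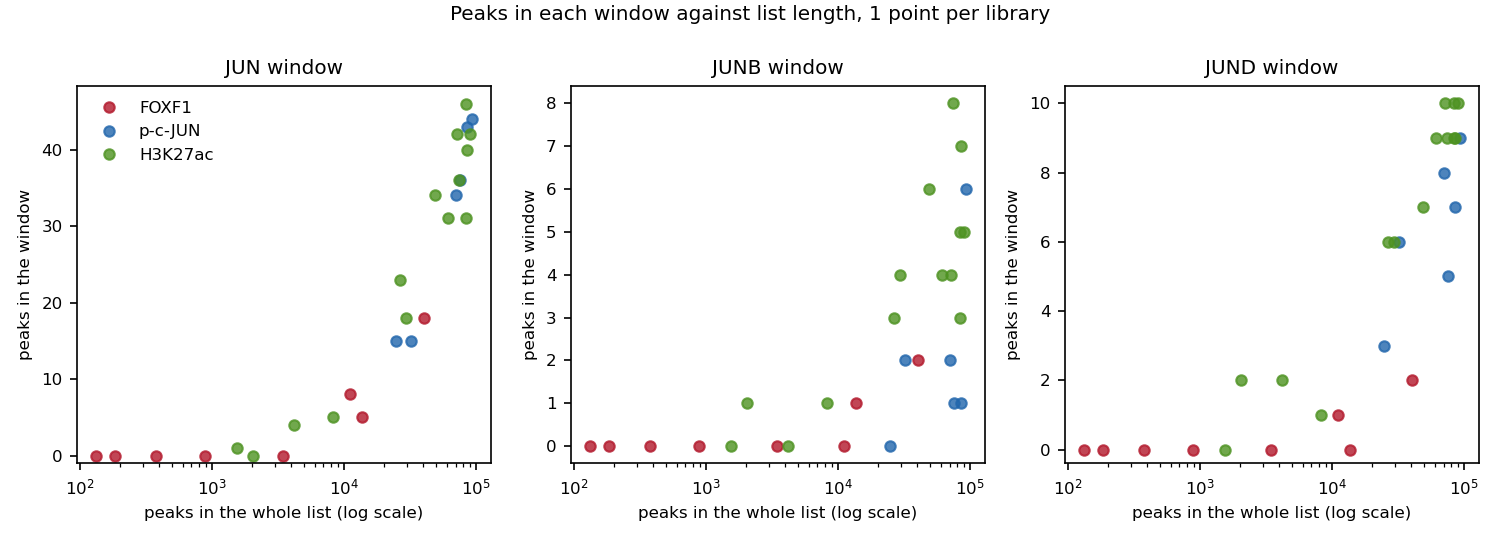
Number of peaks in the JUN, JUNB and JUND windows (vertical axes) against the number of peaks in the whole list (horizontal axis, log scale), 1 point per library and 1 colour per antibody. Libraries with under 1000 peaks, all of FOXF1, have 0 peaks in every window, and the p-c-JUN lists of 24808 and 32136 peaks have 15 peaks each in the JUN window.

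The JUN window was rich in p-c-JUN and H3K27ac peaks. Among 5379 stretches of 500 kb with a peak in any list, 2.86% and 2.10% held as many p-c-JUN peaks as it did or more in the 2 Sen libraries, and 3.18% and 7.60% in the 2 Pro libraries. For H3K27ac the figure was 4.33%, 3.94%, 0.595% and 0.149% in Sen replicates 1 to 4, and 14.3% and 4.39% in the Pro libraries. For FOXF1 it was 20.7% and 7.57% in the Sen libraries and 2.90% in Pro replicate 2, the Pro library with FOXF1 peaks there. The JUND window was intermediate, with 7.43% and 10.4% of 22515 stretches of 100 kb holding as many p-c-JUN peaks or more in Sen cells and 15.0% and 2.72% in Pro cells. In the JUNB window 66.0% and 31.3% did in Sen cells, so its p-c-JUN peak number was ordinary. These shares describe peak density and are no test.

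Joined over all 28 lists, the peaks formed 109 regions, of which 79 lay in the JUN window, 14 in the JUNB window and 16 in the JUND window. Peaks of p-c-JUN were in 63 of them, of H3K27ac in 91 and of FOXF1 in 21, and 16 held all 3 antibodies. A further 15 held p-c-JUN alone, 41 held H3K27ac alone and 3 held FOXF1 alone. No region held FOXF1 and p-c-JUN without H3K27ac, and 30 regions rested on a single library. The fold values below are the authors' enrichment over the local background at a peak's summit. They describe peaks within their own list and are not compared between lists.

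**Figure D2:**
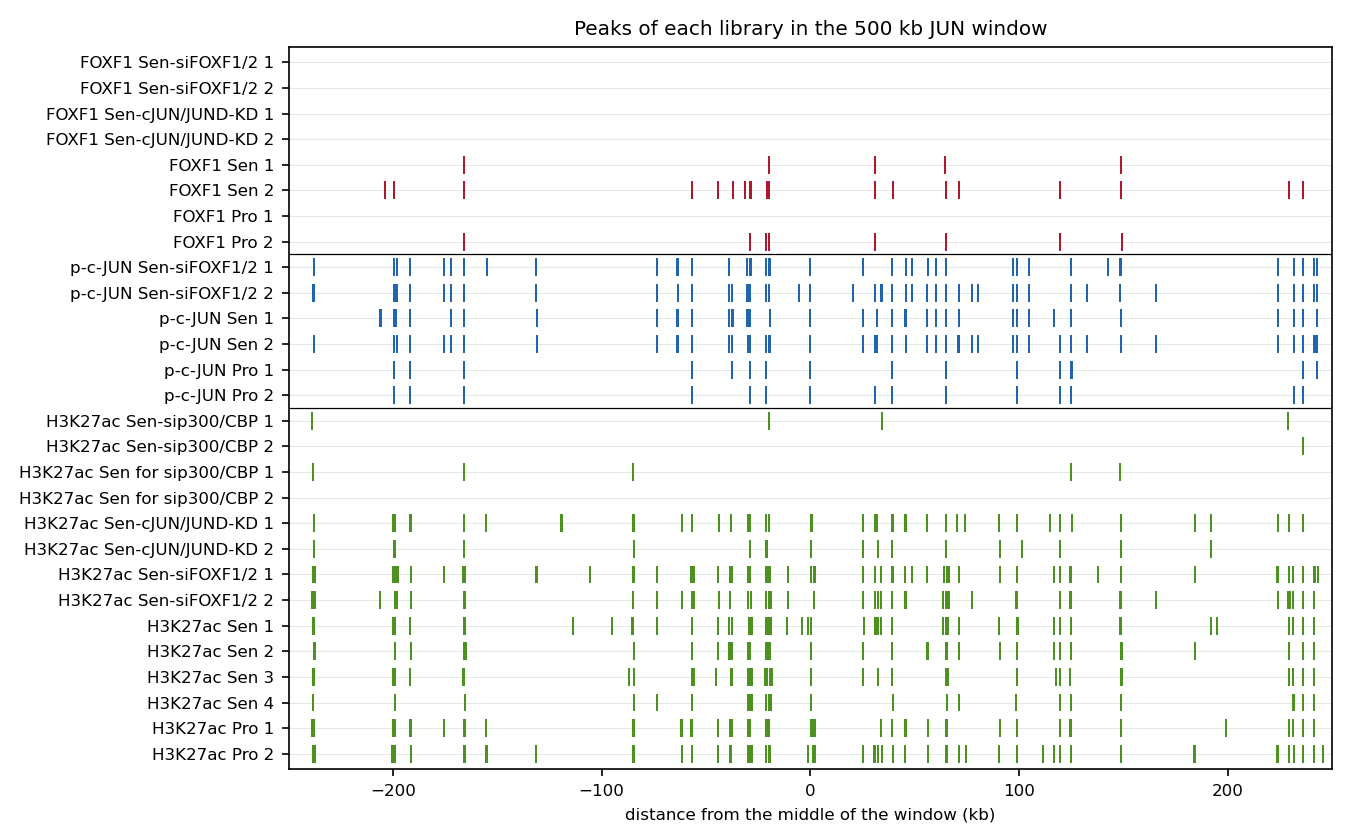
Position of each peak in the JUN window by library, as distance from the window's middle in kb, with FOXF1 in red, p-c-JUN in blue and H3K27ac in green; peaks narrower than 1 kb are drawn 1 kb wide. The 4 FOXF1 knockdown libraries hold 0 peaks, and 12 joined regions hold p-c-JUN in all 6 libraries. At chr1:59228342-59231573 these are separate peaks and not a column through all 6.

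In the JUN window, p-c-JUN had 12 joined regions with a peak in all 6 of its libraries. Of these, 6 held H3K27ac in all 10 libraries outside the sip300/CBP experiment. In chr1:59228342-59231573, among the 12, the p-c-JUN peaks were separate ones, and no single position was held by all 6 libraries. The site at chr1:59289034-59289590, 39.4 kb above the window's middle, had the highest p-c-JUN folds, at 20.3 and 22.5 in Sen-siFOXF1/2 cells, 17.1 and 20.5 in Sen cells and 15.0 and 15.7 in Pro cells. It stood within the top 4.82% of every p-c-JUN list and within the top 0.617% of the best one. Its summits lay within 32 bp of each other over the 6 libraries, and its H3K27ac folds ran between 3.78 and 6.31 over 10 libraries.

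The site at chr1:59314407-59315420 ranked first by the smaller of its −log10 q values in the 2 Sen lists, in the top 2.13% of replicate 1 and the top 1.04% of replicate 2, where the site above stood in the top 2.35% and 0.97%. Its p-c-JUN folds were 8.27 and 9.61 in Sen-siFOXF1/2 cells, 11.9 and 12.2 in Sen cells, and 11.3 and 13.0 in Pro cells. The third by that rank, chr1:59220948-59221685, had folds of 8.73 and 10.0 in Sen-siFOXF1/2 cells, 11.7 and 13.2 in Sen cells, and 10.4 and 10.9 in Pro cells. The window's middle itself lay close to a region with p-c-JUN in all 6 libraries, chr1:59249619-59250285, whose folds were 5.76 and 7.97 in Sen-siFOXF1/2 cells, 8.87 and 10.8 in Sen cells, and 8.46 and 8.44 in Pro cells. All of these sites were held in every p-c-JUN library, whatever the condition.

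Position was well reproduced at such sites. Over the 15 regions with p-c-JUN in all 6 libraries, 12 in the JUN window and 3 in the JUND window, summits spread over 32 to 2000 bp, with a median of 136 bp. The widest was chr1:59228342-59231573, where the joined region held several separate peaks. The middle p-c-JUN summit lay 21 to 724 bp from the middle H3K27ac summit, with a median of 146 bp.

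Peaks of p-c-JUN were more numerous in Sen than in Pro cells in all 3 windows. The JUN window held 34 and 44 peaks in Sen libraries and 15 and 15 in Pro libraries. The JUND window held 8 and 9 in Sen cells and 3 and 6 in Pro cells, and the JUNB window 2 and 6 in Sen cells and 0 and 2 in Pro cells. The groups did not overlap in the JUN and JUND windows and touched at 2 peaks in the JUNB window. Over the 3 windows the log2 difference of peaks + 1 was 1.28 ± 0.267 (SE, n = 2 each), with p = 0.333 by the exact two-sided permutation test, which is the smallest that 2 against 2 libraries can give.

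A region was called gained when both libraries of the first condition and neither of the second held a peak. It was called lost when the reverse held, and kept when all 4 libraries held a peak. Counts with a library left out or under another setting show how far a count moved. They stand without a genome-wide share unless one is given. Of 63 p-c-JUN regions in the windows, 21 were gained in Sen over Pro cells, 0 were lost and 14 were kept. Genome-wide 28.0% were gained, 0.307% lost and 18.1% kept. With 17 of 46 gained in the JUN window, 1 of 7 in the JUNB window and 3 of 10 in the JUND window, the windows stood near that background. With all 4 lists reduced to their 24808 best peaks, the log2 difference was −0.19. Then 1 window region was gained and 3 were lost, against 10.2% gained and 8.41% lost genome-wide. The cut removes any difference in list length, whatever its source, and that source was not tested. The number of window regions in these shortened lists is not given, so no window share stands beside those percentages. The JUN window then held 13 and 15 peaks in Sen libraries and 15 and 13 in Pro libraries. Without Sen replicate 1, 36 regions counted as gained.

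The region that was gained at both list lengths was chr1:59310096-59310321, with folds of 7.00 and 8.41 in Sen-siFOXF1/2 cells and 5.01 and 5.98 in Sen cells, and no peak in either Pro library or in any of the 14 H3K27ac lists. The next by rank, chr1:59346997-59347594, had folds of 7.73 and 8.45 in Sen-siFOXF1/2 cells and 6.09 and 9.30 in Sen cells, again with no peak in Pro cells and no H3K27ac. The third, chr1:59051308-59052373, had folds of 5.12 and 6.38 in Sen cells, and it adjoined a site that all 6 libraries held. In the JUN window, 11 of 79 joined regions had p-c-JUN in the 4 senescent libraries and in neither Pro library. Of these 11, 5 had no H3K27ac peak in any list. The genome-wide share of such regions is not given here. Of the 17 JUN window regions gained in Sen over Pro cells, 12 (70.6%) overlapped H3K27ac in any list, against 70.4% genome-wide. In the equal-length lists the 3 lost regions were chr1:59228640-59229006, chr1:59348861-59349387 and chr1:59369284-59369881.

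All 14 p-c-JUN regions kept between Sen and Pro cells overlapped H3K27ac in both Sen libraries of the first deposit, where 62.9% of kept regions did genome-wide, and 13 of 14 overlapped it in both Pro libraries, where 84.7% did. Of the 21 gained regions, 8 (38.1%) overlapped H3K27ac in both Sen libraries, against 30.4% genome-wide, and the same number overlapped it in both Pro libraries, against 28.9%. H3K27ac was thus listed as often at the gained sites in Pro cells as in Sen cells. Over any of the 14 H3K27ac lists, 14 of 21 gained regions (66.7%) had a peak, against 70.4% genome-wide.

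After knockdown of FOXF1 and FOXF2, p-c-JUN peaks remained listed throughout the JUN and JUND windows. The JUN window held 36 and 43 peaks in Sen-siFOXF1/2 cells and 34 and 44 in Sen cells. The JUND window held 5 and 7 in Sen-siFOXF1/2 cells and 8 and 9 in Sen cells, and the JUNB window 1 and 1 in Sen-siFOXF1/2 cells and 2 and 6 in Sen cells. Counts overlapped in the JUN window and were lower in both knockdown libraries in the other two. The log2 difference over the 3 windows was −0.14 ± 0.249 (SE, n = 2 each; exact p = 0.667), and it was 0.083 with peaks of −log10 q of 5 or more alone.

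Of 68 p-c-JUN regions, 1 was gained in Sen-siFOXF1/2 over Sen cells, 3 were lost and 32 were kept, against 4.47%, 4.03% and 35.9% genome-wide. The gained one was chr1:59298707-59299004, with folds of 5.42 and 4.67 in Sen-siFOXF1/2 cells. The lost ones were weak in Sen cells. These were chr1:59281712-59282223 with Sen folds of 3.99 and 4.24, chr19:12932402-12932845 in the JUNB window with 4.06 and 3.15, and chr19:18342228-18342644 in the JUND window with 4.64 and 3.78. None of the 3 had a peak of −log10 q of 5 or more in both Sen lists, and with that cut-off 0 were lost and 3 gained. Counts were 4 gained without Sen-siFOXF1/2 replicate 1, 3 gained and 7 lost without its replicate 2, 2 gained and 11 lost without Sen replicate 1, and 6 gained and 6 lost without Sen replicate 2.

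FOXF1 had peaks mainly in the JUN window, which spans 500 kb against 100 kb for each of the others. Knockdown libraries had none in it. The JUN window held 0 and 0 peaks in Sen-siFOXF1/2 cells, 0 and 0 in Sen-cJUN/JUND-KD cells, 5 and 18 in Sen cells, and 0 and 8 in Pro cells. The JUNB window held 1 and 2 and the JUND window 0 and 2 in Sen cells, against 0 in all 4 knockdown libraries. The knockdown lists were short throughout, with 186 and 133 peaks in all after siFOXF1/2 and 378 and 883 after JUN knockdown, against 13603 and 40537 in Sen cells. The log2 difference over the 3 windows was −3.67 ± 0.858 (SE, n = 2 each) for each knockdown over Sen, with the smallest possible p of 0.333 by the exact permutation test, and both comparisons share the Sen libraries.

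Of 22 FOXF1 regions in the windows, 6 were lost in Sen-siFOXF1/2 over Sen cells, 0 gained and 0 kept, against 26.2%, 0.0607% and 0.121% genome-wide. In Sen-cJUN/JUND-KD over Sen cells 6 of 22 were lost, 0 gained and 0 kept, against 25.4%, 0.148% and 0.194%. Since the knockdown libraries held 0 window peaks, every region held by both Sen libraries was lost by definition. Lists reduced to equal length, at 133 and 378 peaks, held 0 window peaks in every library. No FOXF1 window peak of a Sen list ranked that high, the best standing in the top 6.94% and 6.06%. That setting could show no loss in the windows. Its 0 lost therefore cannot be set against the 22.0% lost genome-wide after siFOXF1/2 and 19.7% after JUN knockdown. Without Sen replicate 1, whose list was the shorter, 22 regions counted as lost. The FOXF1 libraries after JUN knockdown came with the second deposit and the Sen libraries with the first, and therefore the effects of knockdown and of deposit cannot be told apart.

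The 6 FOXF1 regions held by both Sen libraries were led by chr1:59398660-59399494, 149.3 kb above the middle of the JUN window, with folds of 9.26 and 8.70 in Sen cells, in the top 6.94% and 6.06% of those lists. Pro replicate 2 held it with a fold of 5.30 and Pro replicate 1 did not. With the 4 Sen and Pro lists at their 3441 best peaks it was the 1 window region held, in both Sen libraries and neither Pro library, where 11.2% of regions were gained genome-wide. The other 4 in the JUN window were also held by Pro replicate 2. These were chr1:59280677-59281335 with Sen folds of 5.45 and 7.50, chr1:59229868-59230553 with 5.04 and 6.98, chr1:59314386-59315269 with 5.97 and 6.15, and chr1:59084043-59084485 with 6.26 and 6.27. The JUNB region chr19:12889879-12890353, with folds of 4.03 and 3.27, stood near the end of the Sen lists, in their top 93.9% and 97.3%.

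In Sen over Pro cells, FOXF1 gained 1 of 23 window regions, lost 0 and kept 0, against 13.1%, 0.350% and 4.50% genome-wide. The gained region was the weak JUNB one. The log2 difference of peak numbers was 2.00 ± 1.87 (SE, n = 2 each; exact p = 0.667), and the groups overlapped, at 6 and 22 peaks in Sen cells and 0 and 9 in Pro cells. The 2 libraries of each group differed widely in length, with 13603 and 40537 peaks in Sen cells and 3441 and 11061 in Pro cells. Gained counts were 14 without Sen replicate 1 and 6 without Pro replicate 2, and lost counts were 1 without Pro replicate 1.

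FOXF1 and p-c-JUN met at several of these sites. Of the 6 FOXF1 regions of Sen cells, 4 overlapped p-c-JUN in both Sen libraries, against 73.9% genome-wide, and 5 overlapped H3K27ac in both Sen libraries, against 69.1%. Over the 16 joined regions with both factors, their middle summits lay 5 to 1797 bp apart, with a median of 126 bp. In 11 of them the summits lay within 200 bp. Joining peaks by overlap favours short distances, and no genome-wide distance is given. At chr1:59083241-59085300 the distance was 8 bp, at chr1:59219522-59222569 it was 18 bp and at chr1:59313292-59316295 it was 32 bp. At the leading FOXF1 site, within chr1:59397981-59399743, the FOXF1 summit lay 536 bp above that of p-c-JUN. That region held p-c-JUN in the 4 senescent libraries, with folds of 7.26 and 7.65 in Sen-siFOXF1/2 cells and 6.31 and 6.01 in Sen cells, and in neither Pro library. The 15 joined regions with p-c-JUN in all 6 libraries include chr1:59228342-59231573, where the p-c-JUN peaks were separate. Of the 15, 8 in the JUN window and 0 in the JUND window had a FOXF1 peak in any list. In chr1:59049245-59052601, chr1:59192408-59193723, chr1:59288677-59289937 and chr1:59485413-59486533, that peak came from Sen replicate 2 alone, the longest FOXF1 list. Of the 14 p-c-JUN regions kept between Sen and Pro cells, 7 overlapped FOXF1 in any list, against 62.1% genome-wide. By window, this was 7 of 11 for JUN and 0 of 3 for JUND.

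H3K27ac peaks overlapped in number between Sen and Pro cells in the JUN and JUNB windows. The JUN window held 40 and 31 peaks in Sen cells and 31 and 42 in Pro cells, the JUNB window 7 and 4 in Sen cells and 5 and 5 in Pro cells, and the JUND window 9 and 9 in Sen cells and 10 and 10 in Pro cells. The log2 difference over the 3 windows was −0.044 ± 0.228 (SE, n = 2 each; exact p = 0.667), and 0.10 with lists of equal length. Of 75 regions, 0 were gained in Sen over Pro cells, 5 were lost and 29 kept, against 4.51%, 9.56% and 25.9% genome-wide. All 5 lost regions lay in the JUN window, and each library left out moved the counts. They were 2 gained and 9 lost without Sen replicate 1, 12 gained and 6 lost without Sen replicate 2, 2 gained and 16 lost without Pro replicate 1, and 3 gained and 9 lost without Pro replicate 2.

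The lost H3K27ac regions had modest folds in Pro cells. They were chr1:59187988-59188838 with Pro folds of 4.03 and 4.51, chr1:59295126-59295961 with 4.63 and 5.37, chr1:59094422-59095143 with 4.85 and 4.19, and a neighbouring pair, chr1:59250960-59251245 with 2.64 and 2.65 and chr1:59251998-59252422 with 2.43 and 2.61. The first 3 were among 6 lost with lists of equal length, where 8.84% were lost genome-wide and the number of window regions is not given. The second held p-c-JUN in the 4 senescent libraries and in neither Pro library, with folds of 4.55 and 7.00 in Sen-siFOXF1/2 cells and 5.82 and 5.04 in Sen cells. At that site, H3K27ac and p-c-JUN were listed in opposite conditions between Sen and Pro cells in the full lists. Its Sen p-c-JUN peaks stood in the top 58.1% and 68.2% of their lists, and p-c-JUN was not gained there with lists of equal length. Both Sen-siFOXF1/2 libraries also listed H3K27ac there, with folds of 2.84 and 3.25.

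After siFOXF1/2 the H3K27ac peaks numbered 46 and 42 in the JUN window, against 40 and 31 in Sen cells. In the JUNB window they numbered 3 and 4 in Sen-siFOXF1/2 cells and 7 and 4 in Sen cells, and in the JUND window 9 and 10 in Sen-siFOXF1/2 cells and 9 and 9 in Sen cells. Only the JUN window separated the groups. The log2 difference over the 3 windows was 0.20 ± 0.172 (SE, n = 2 each; exact p = 0.667). Of 75 regions, 5 were gained in Sen-siFOXF1/2 over Sen cells, 1 was lost and 29 were kept, against 5.51%, 4.26% and 26.7% genome-wide.

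All 5 gained regions lay in the JUN window. They were chr1:59194111-59194510 with folds of 3.38 and 4.06 in Sen-siFOXF1/2 cells, chr1:59251575-59252423 with 2.90 and 3.75, chr1:59473727-59474377 with 4.29 and 3.20, chr1:59316550-59316785 with 2.05 and 2.26, and chr1:59295447-59295814 with 2.84 and 3.25. Sen replicate 3 of the second deposit also held the first, with a fold of 4.94, and neither Sen replicate 3 nor 4 held the other 4. The second and the fifth overlap regions listed above as lost in Sen over Pro cells, and both comparisons rest on the same 2 Sen libraries. The lost region was chr19:12895243-12895766 in the JUNB window, with Sen folds of 2.94 and 2.75. It did not hold up when all 4 Sen libraries were used, which gave 0 lost. Counts were 14 gained and 5 lost without Sen-siFOXF1/2 replicate 1, 13 gained without its replicate 2, 11 gained and 2 lost without Sen replicate 1, and 11 lost without Sen replicate 2.

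After JUN knockdown, H3K27ac peaks in the JUN window numbered 36 and 18 in Sen-cJUN/JUND-KD cells and 34 and 23 in the Sen libraries of the same deposit. The JUNB window held 8 and 4 in Sen-cJUN/JUND-KD cells and 6 and 3 in Sen cells, and the JUND window 9 and 6 in Sen-cJUN/JUND-KD cells and 7 and 6 in Sen cells. The groups overlapped in every window, and the log2 difference over the 3 was −0.0082 ± 0.524 (SE, n = 2 each; exact p = 1). With all 4 lists at their 26694 best peaks the JUN window held 17 and 15 peaks in Sen-cJUN/JUND-KD cells and 21 and 23 in Sen cells, which no longer overlapped. The log2 difference over the 3 windows was then −0.28 ± 0.144 (SE, n = 2 each), with p = 0.333 by the exact test, the smallest possible. Of 69 regions, 2 were gained in Sen-cJUN/JUND-KD over Sen cells, 4 lost and 17 kept, against 7.66%, 2.74% and 11.8% genome-wide. The lost regions made up 4 of 49 in the JUN window (8.16%).

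The lost region chr1:59480792-59482006 was strong in those Sen lists, with folds of 5.58 and 5.82 in their top 2.39% and 1.71%, and it held p-c-JUN in all but 1 of the 6 p-c-JUN libraries. It was listed in both Sen-siFOXF1/2 libraries, in Sen replicate 1 but not 2, and in both Pro libraries, with folds between 2.53 and 3.16. The other lost regions were chr1:59374198-59374903 with Sen folds of 3.41 and 3.61, chr1:59491175-59491491 with 4.04 and 3.49, and chr1:59231247-59231573 with 2.40 and 2.48. The gained regions were chr1:59441558-59442143 with folds of 5.18 and 4.96 in Sen-cJUN/JUND-KD cells and chr19:12876907-12877266 in the JUNB window with 6.46 and 4.50, and Sen replicate 1 of the first deposit also held both.

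With lists of equal length, 5 H3K27ac regions were lost after JUN knockdown, all in the JUN window. Genome-wide 7.34% were lost, and the number of window regions in these lists is not given, so no window share stands beside it. The 5 included chr1:59289145-59289799 and chr1:59219963-59220367, of which the first overlaps and the second lies beside a leading p-c-JUN site. Neither was lost in the full lists. There the first was kept, with folds of 4.96 and 3.78 in Sen-cJUN/JUND-KD cells and 4.38 and 4.84 in Sen cells. The second was held by Sen-cJUN/JUND-KD replicate 1, with a fold of 3.65. With −log10 q of 5 or more, 1 region was lost. Counts were 6 gained and 9 lost without Sen-cJUN/JUND-KD replicate 1, 20 gained and 4 lost without its replicate 2, 4 gained and 7 lost without Sen replicate 3, and 3 gained and 12 lost without Sen replicate 4. FOXF1 and H3K27ac were the antibodies with JUN knockdown libraries, so p-c-JUN after JUN knockdown was not analysed here.

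The sip300/CBP libraries were too sparse to describe the loci. The JUN window held 4 and 1 H3K27ac peaks in Sen-sip300/CBP cells and 5 and 0 in their own Sen controls. The JUNB window held 0 and 0 in Sen-sip300/CBP cells and 1 and 1 in the controls, and the JUND window 2 and 0 in Sen-sip300/CBP cells and 1 and 2 in the controls. The log2 difference over the 3 windows was −0.60 ± 1.03 (SE, n = 2 each; exact p = 0.667). Of 14 regions, 0 were gained, 0 lost and 0 kept, against 2.02%, 2.69% and 0.490% genome-wide. Lost counts were 5 without Sen control replicate 2 and 2 without its replicate 1, and gained counts were 1 without Sen-sip300/CBP replicate 1 and 3 without its replicate 2.

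**Figure D3:**
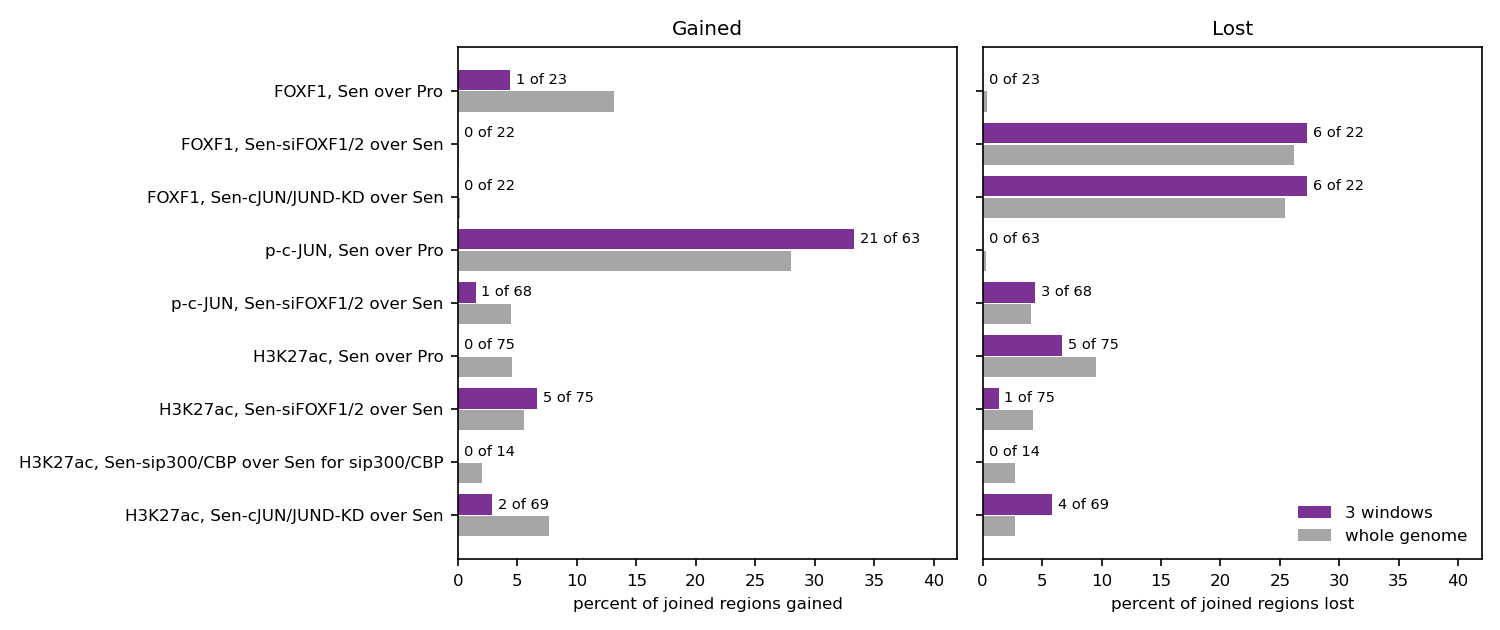
Percent of joined regions gained (left) and lost (right) in each comparison, in the 3 windows (purple, with the number called of all regions) and genome-wide (grey). The windows follow the genome for p-c-JUN in Sen over Pro cells (21 of 63, against 28.0%) and for FOXF1 lost after siFOXF1/2 (6 of 22, against 26.2%).

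In the JUNB window, 0 of 14 regions held p-c-JUN in all 6 libraries, and 2 held H3K27ac in all 10 libraries outside the sip300/CBP experiment. These were chr19:12888473-12890493, also held by both Sen controls of the sip300/CBP experiment, by FOXF1 in both Sen libraries and by p-c-JUN in both Sen-siFOXF1/2 libraries and Sen replicate 2, and chr19:12899045-12900657, at the middle of the window, with no FOXF1 or p-c-JUN peak in any list. The 1 p-c-JUN region held by both Sen libraries, chr19:12932402-12932845, ranked in their top 91.8% and 98.3%.

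In the JUND window, 3 of 16 regions held p-c-JUN in all 6 libraries. The region chr19:18392404-18393240, 2.6 kb above the middle, had folds of 8.02 and 8.72 in Sen-siFOXF1/2 cells, 8.57 and 11.4 in Sen cells, and 10.8 and 10.3 in Pro cells, and H3K27ac in all 10 libraries, with a middle summit 724 bp above that of p-c-JUN. The region chr19:18385321-18386079 had folds of 8.40 and 13.3 in Sen-siFOXF1/2 cells, 8.92 and 9.17 in Sen cells, and 11.0 and 14.5 in Pro cells. The region chr19:18439280-18439798, at the window's edge, had folds of 8.07 and 9.00 in Sen-siFOXF1/2 cells, 9.27 and 7.61 in Sen cells, and 5.45 and 9.29 in Pro cells. All 3 were kept between conditions and none had FOXF1.

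The 3 JUND regions gained by p-c-JUN in Sen over Pro cells were chr19:18404052-18404419 with Sen folds of 6.28 and 6.54, chr19:18373789-18374251 with 5.62 and 5.33, and chr19:18342228-18342644 with 4.64 and 3.78. The first held H3K27ac in 9 of 10 libraries outside the sip300/CBP experiment. None was gained with lists of equal length.

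**Figure D4:**
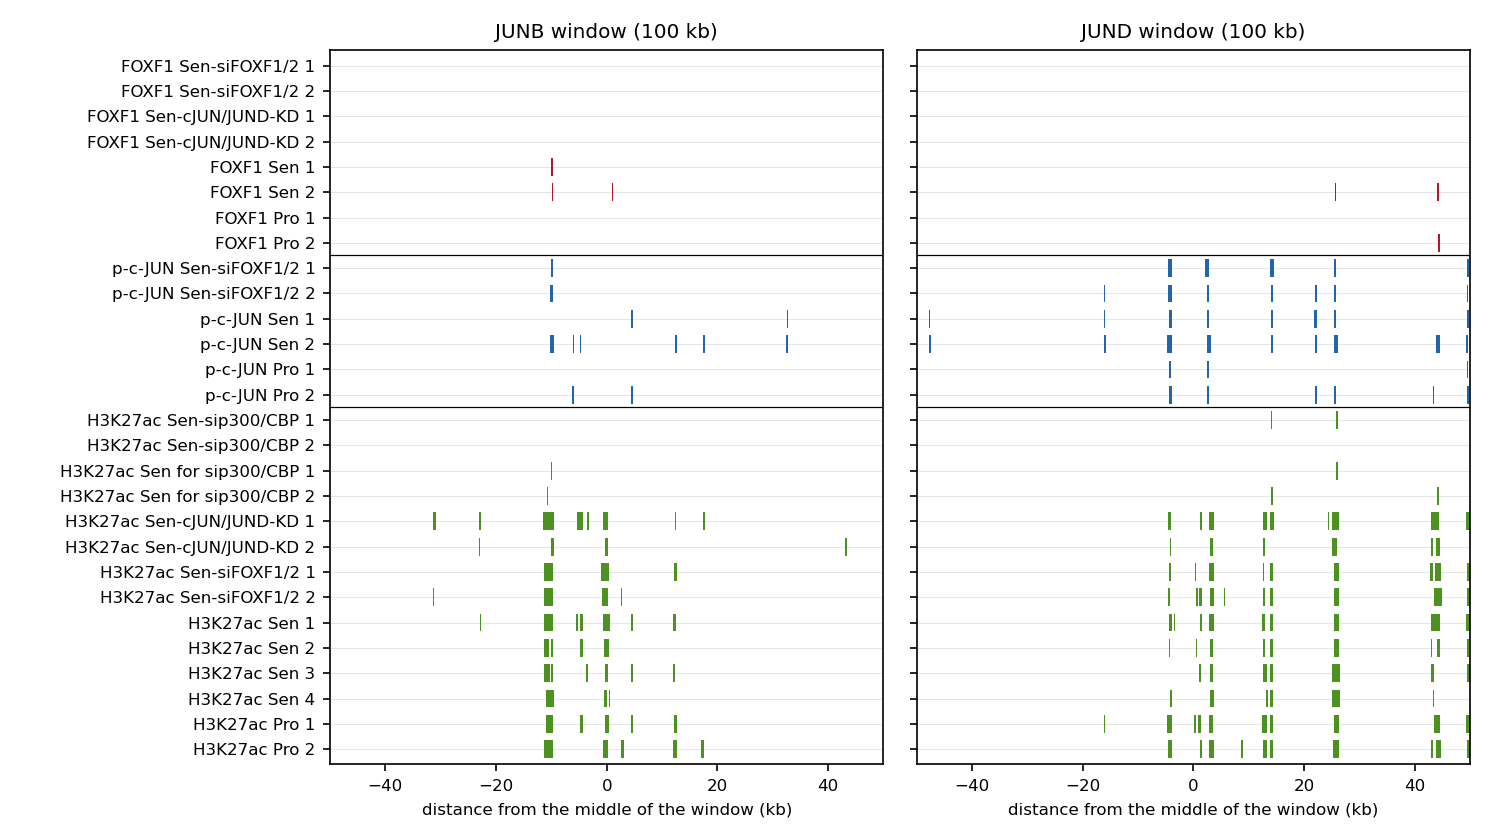
Position of each peak in the JUNB (left) and JUND (right) windows by library, as distance from the window's middle in kb, coloured by antibody as FOXF1 red, p-c-JUN blue and H3K27ac green; the narrowest peaks are drawn 0.2 kb wide. In the JUND window 3 columns of p-c-JUN run through all 6 libraries, and in the JUNB window 0 do.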

How the data were processed

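CUT&RUN peak lists of IMR-90 ER:Ras cells were used, 28 in all, 1 per library with none pooled. Bowtie2 2.3.4.1, SAMtools 1.9, deepTools 3.1.1, MACS2 3.0.0 and build hg19 appear, with no parameters, per the submitters' processing notes; a control library and the use of the yeast spike-in are not given in the sources used here. The deposited lists give each peak a display score, a fold enrichment ratio at the summit, and −log10 values of p and q, as the authors' peak caller wrote them. The score was not used; fold and −log10 q served to describe, rank and filter peaks within a list. Reads behind the lists are unknown, so no counting interval was given.

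Only chromosomes 1 to 22 and X were used, leaving out 475 peaks (0.0423%). Within each of 9 comparisons, peaks of the 4 libraries were joined by at least 1 bp, and regions were classed by which libraries held them, in the windows and over the whole genome. Groups came from sample titles. Peak numbers, as log2 of peaks + 1, were compared with the exact two-sided permutation test over 6 arrangements. Named are all regions gained or lost where a window had 5 or fewer, otherwise the 3 of best worst rank, and the 3 strongest FOXF1 and p-c-JUN regions of Sen cells; other regions were named after their values were seen. The members, lists and alternatives were chosen with earlier results of these data known. The rules on gene starts, on genes of like pattern and on other AP-1 genes could not be applied without an hg19 annotation. No lists were identical. The code was tested on simulated lists. Python 3.11.15, numpy 2.4.6, pandas 2.3.3, scipy 1.17.1 and matplotlib 3.10.9 were used. Alternatives were a shared stretch of 50% of the shorter peak, peaks with −log10 q of 5 or more, lists of equal length (the best peaks of each, to the shortest list), a pseudocount of 0.5, each replicate left out, a replicate block and all 4 H3K27ac Sen libraries.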

Additional observations from a re-analysis of the deposited data

How the results depend on the processing

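List length limits every count here, and with 2 libraries a group no exact test can pass 0.05. With lists of equal length the log2 difference in window peaks was −0.19 for p-c-JUN in Sen over Pro cells, 0.10 for H3K27ac in Sen over Pro cells and 0 for FOXF1 in both knockdowns over Sen. It was −0.28 for H3K27ac after JUN knockdown, −0.050 for p-c-JUN and 0.11 for H3K27ac in Sen-siFOXF1/2 over Sen cells, 1 for FOXF1 in Sen over Pro cells and −1 for sip300/CBP. Regions gained and lost were then 1 and 3 for p-c-JUN in Sen over Pro cells and 2 and 1 in Sen-siFOXF1/2 over Sen cells. For H3K27ac, 1 was gained and 6 were lost in Sen over Pro cells. In Sen-siFOXF1/2 over Sen cells 6 were gained and 3 lost, and after JUN knockdown 1 was gained and 5 were lost. For FOXF1, 0 were lost in both knockdowns. This count and the FOXF1 knockdown difference of 0 were fixed beforehand, since no Sen window peak ranked within the best 133 or 378. With −log10 q of 5 or more the difference was 0.083 for p-c-JUN in Sen-siFOXF1/2 over Sen cells and 0.12 for H3K27ac after JUN knockdown. For H3K27ac it was −0.28 in Sen over Pro cells and 0.38 in Sen-siFOXF1/2 over Sen cells, and with all 4 Sen libraries and no such minimum −0.22 and 0.37. With −log10 q of 5 or more the counts were 2 gained for FOXF1 in Sen over Pro cells, 3 lost for FOXF1 in each knockdown, 13 gained for p-c-JUN in Sen over Pro cells, 3 gained and 0 lost for p-c-JUN in Sen-siFOXF1/2 over Sen cells, 2 lost for H3K27ac in Sen over Pro cells, 0 lost in Sen-siFOXF1/2 over Sen cells and 1 lost after JUN knockdown. An overlap of 50% gave 2 gained FOXF1 regions in Sen over Pro cells, and all 4 Sen libraries gave 0 lost for H3K27ac in Sen-siFOXF1/2 over Sen cells. These shorter lists hold fewer peaks by construction. The counts at −log10 q of 5 or more and at 50% overlap stand without genome-wide shares. They show only how far each count moved.

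With 1 replicate left out, the lone library of a group has no spread of its own, and no genome-wide share is given. Differences and regions gained and lost then ranged as follows. FOXF1 in Sen over Pro cells gave 0.34 to 3.67, 1 to 14 gained and 0 to 1 lost. FOXF1 in each knockdown over Sen gave −4.52 to −2.81, 0 to 0 gained and 6 to 22 lost. For p-c-JUN the ranges were 1.08 to 1.49, 23 to 36 and 0 to 2 in Sen over Pro cells, and −0.34 to 0.072, 2 to 6 and 4 to 11 in Sen-siFOXF1/2 over Sen cells. For H3K27ac they were −0.21 to 0.13, 2 to 12 and 6 to 16 in Sen over Pro cells, 0.025 to 0.37, 5 to 14 and 1 to 11 in Sen-siFOXF1/2 over Sen cells, −1.50 to 0.31, 0 to 3 and 0 to 5 for sip300/CBP, and −0.46 to 0.44, 3 to 20 and 4 to 12 after JUN knockdown.

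Groups share replicate numbers without a stated pairing. Same-numbered libraries deviated together in 5 of 8 comparisons and apart in 1, with no spread in 2. With a replicate block the differences were the same, such as 1.28 ± 0.039 (SE) for p-c-JUN in Sen over Pro cells, and the exact p could not fall below 0.5. For H3K27ac after JUN knockdown no paired analysis was possible because its groups share fewer than 2 numbers.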
